A study of Mus musculus with 6 samples.

Results

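The genes examined here encode the proteins of the mitochondrial ribosome, measured in activated mouse CD4 T cells with and without the AMPK catalytic subunit α1. Members were taken by symbol, as every gene whose name begins with Mrpl or Mrps followed by a number, which gave 77 of the 23282 genes listed. Of these, 48 carry a large-subunit name (Mrpl) and 29 a small-subunit name (Mrps). The 6 RNA-seq libraries, labelled as of strain C57BL/6, comprised 3 of WT cells, from Prkaa1 fl/fl mice without CD4Cre, and 3 of AMPK KO cells, from CD4Cre mice crossed to Prkaa1 fl/fl, so that both groups carried the floxed allele and Cre was driven by the CD4 promoter. Per the study's methods the mice were female and 6 to 8 weeks old. Spleen and lymph nodes served as the source of the cells, which had 1 h of rest and then received anti-CD3 and anti-CD28 at 2 µg/mL each. The labels give 24 h of stimulation and the study's methods give 6 h. The comparison asks how loss of AMPK in T cells moves the RNA of this machine, and whether its 2 subunits move alike. In bulk RNA, fewer cells expressing a gene and less RNA per cell cannot be told apart.

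Several facts of the libraries bear on every value below. The libraries held 9575096 to 11185360 reads. The precursor of cytosolic ribosomal RNA, Rn45s, took 22.4% ± 2.21 (SD, n = 3) of WT reads and 9.89% ± 1.24 (SD, n = 3) of AMPK KO reads. Prkaa1 itself stood at 4.64, 5.24 and 4.86 in WT and at 4.08, 4.72 and 4.67 in AMPK KO on the log2 scale, groups that overlapped (difference −0.43, SE 0.25, limma adjusted p = 0.357). Reads over the floxed exon cannot be separated in a value per gene, so Prkaa1 does not check the deletion. Xist, the RNA of the inactive X chromosome of female cells, had 8 to 32 reads per WT library and 1998 to 2876 per AMPK KO library, which goes against the stated sex for the WT libraries. Sex and genotype cannot be told apart in these samples. This holds for the members too, of which 0 of 77 lie on X or Y. The defining T cell genes were present, and the summed level of 12 CD4 T cell markers was 2581 to 2767 CPM (normalized reads scaled to a fixed library total) in WT and 2159 to 2585 in AMPK KO. Of these 12 markers 9 had lower means in AMPK KO, and Cd3g (−0.93), Cd3e (−0.66) and Cd28 (−0.56) fell while Thy1 (0.50) rose. Macrophage markers had higher means in AMPK KO for 12 of 12 tested genes, 6 of them past the test, with sums of 361 to 400 in WT and 651 to 1265 in AMPK KO, and none was at 0 in all libraries. Of 6 tested plasma cell markers 1 rose, Jchain (2.60), and the list summed to 197 to 247 in WT and 511 to 545 in AMPK KO. CD8 T cell markers summed to 231 to 305 and 321 to 376, with 0 of 2 past the test, NK cell markers to 60.6 to 86.5 and 111 to 124, with 1 past the test, and neutrophil markers, of which 2 fell, to 799 to 913 and 529 to 768. Erythroid markers summed to 3992 to 4600 in WT and 2891 to 5575 in AMPK KO, with 0 of 7 tested genes past the test. B cell markers summed to 295 to 325 in WT and 291 to 350 in AMPK KO, with 0 of 9. A list of T cell activation and growth genes summed to 2596 to 2924 in WT and 2087 to 2343 in AMPK KO, and of its 19 tested genes Egr1, Egr3 and Cd40lg fell and Tfrc, Tnfrsf9 and Ifng rose. Their part in the results below was not tested.

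Mitochondria keep a ribosome of their own, descended from that of bacteria, which makes the few hydrophobic respiratory chain and ATP synthase subunits that mitochondrial DNA encodes. Its RNA comes from mitochondrial DNA, but all its proteins are encoded in the nucleus, made in the cytosol and imported. The small subunit binds and decodes messenger RNA, and the large subunit joins amino acids and feeds the new protein through an exit tunnel towards the inner membrane. T cells build up mitochondria and their translation when they are activated. AMPK is a sensor of low cellular energy that is known for promoting mitochondrial upkeep and for restraining growth through mTORC1.

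Because the members are scattered over 17 chromosomes and share a machine rather than a locus, their promoters were read for letters bound by factors known to serve nuclear genes of mitochondria. RefSeq (GRCm38.p6) gave 74 promoters, each 250 bases before to 50 after a start site, for 68 of the 77 genes. On either strand, the NRF-1 core GCGCATGC was found for 11.8% of the members and 3.05% of all 27025 genes with a promoter, counting a gene once however many starts it has. The ETS letters CCGGAAGT, bound by the GABP family, were found for 17.6% against 4.31%, the YY1 letters AAGATGGC for 17.6% against 3.19%, and the E-box CACGTG, bound by MYC and related factors, for 7.35% against 8.09%. At least 1 of the 4 was found for 31 of 68 members (45.6%) and for 16.8% of all genes, and no matches of different motifs overlapped in the members. By subunit, 21 of 42 large-subunit genes and 10 of 26 small-subunit genes held one. These are matches of letters only, and the genes compared with were not matched to the members for level or GC content. The 4 promoters below, from 150 bases before to 30 after the start, come from the genes named by the rule for members, taken by number of matches and then by size of the difference between genotypes, with the matches in capitals. Mrpl33 and Mrps27 hold 2 matches, and Mrpl49 and Mrpl10 hold 1, as do other members. That of Mrpl33 (chr5:31613801-31613980, plus strand) holds the NRF-1 core beside the ETS letters, and that of Mrps27 (chr13:99344636-99344815, plus strand) the ETS letters in reverse and the YY1 letters. Mrpl49 (chr19:6057726-6057905, minus strand) holds the YY1 letters and Mrpl10 (chr11:97041432-97041611, plus strand) the NRF-1 core in reverse.
Mrpl33: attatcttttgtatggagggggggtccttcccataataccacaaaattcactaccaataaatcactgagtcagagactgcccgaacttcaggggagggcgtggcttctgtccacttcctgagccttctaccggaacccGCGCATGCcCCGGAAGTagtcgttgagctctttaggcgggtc
Mrps27: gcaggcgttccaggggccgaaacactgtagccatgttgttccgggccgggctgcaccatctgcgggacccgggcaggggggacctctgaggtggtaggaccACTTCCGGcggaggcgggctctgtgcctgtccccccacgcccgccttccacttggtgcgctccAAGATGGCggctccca
Mrpl49: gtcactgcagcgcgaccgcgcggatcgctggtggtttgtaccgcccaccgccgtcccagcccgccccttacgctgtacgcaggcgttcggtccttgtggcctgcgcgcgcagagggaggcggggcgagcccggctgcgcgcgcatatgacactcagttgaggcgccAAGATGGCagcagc
Mrpl10: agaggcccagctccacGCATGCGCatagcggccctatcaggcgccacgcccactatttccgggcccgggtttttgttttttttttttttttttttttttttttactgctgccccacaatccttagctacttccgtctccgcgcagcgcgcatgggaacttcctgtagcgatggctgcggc

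Nearly the whole ribosome was detected. With a minimum mean level of 1, on the deposited scale of log2(CPM + 1), 76 of the 77 members were tested, as were 11279 genes in all. Member levels ran from 2.26 to 7.39 with a median of 4.84, above the median of 4.26 over all genes tested, and the median was the same for both subunits at 4.84. Behind these levels stood 7 to 2051 reads per member and library. The highest level was that of Mrps25, a small-subunit protein found only in mitochondria, at 7.54, 7.33 and 7.49 in WT and 7.21, 7.59 and 7.20 in AMPK KO. Its 500 last bases lie wholly within an exon of Nr2c2 on the opposite strand, so part of its reads may belong to that gene. Per kilobase of transcript, Mrps25 ranked only 27th, and Mrpl52, Mrpl33 and Mrpl30 led, with Mrpl33 at 199.6 CPM per kilobase. The lowest tested members were Mrps27, Mrpl15 and Mrpl21. Dividing by length fits reads spread along a transcript, whereas the labels name a kit sold for reading the 3′ end. Whether reads came only from 3′ ends could not be settled from values per gene, and the ranks per kilobase and every value for the last 500 bases depend on it. The ranks by level and by level per kilobase had a Spearman correlation of 0.76 across the 76 genes, which are not independent.

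No member passed the test between AMPK KO and WT. Of the 76 tested, 0 had a limma adjusted p under 0.05, with values from 0.146 to 0.998, whereas 637 of all 11279 genes (5.65%) passed. At an unadjusted p under 0.05 there were 8 members (10.5%), below the 21.3% of all genes. Members are well expressed, so the same count was made among genes with a mean level of at least 4, where it was 6 of 57 members (10.5%) and 26.1% of all genes. The 2 groups of 3 libraries did not overlap for 5 members that were higher in AMPK KO, where 11.6% of all genes did so, and for 1 that was lower, where 14.0% did so. The size of change that these libraries can exclude is given by the 95% confidence intervals, which reached a median of 0.50 to either side of the log2 difference. For 64 of the 76 members the interval lay wholly between −1 and 1.

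Within these limits more members had higher than lower means in AMPK KO, and this held for the large subunit and not for the small. In AMPK KO, 47 of the 76 members (61.8%) had the higher mean, against 51.2% of all genes, with a median log2 difference of 0.09 against 0.02. Among large-subunit genes 33 of 48 were higher, with a median of 0.17. Among small-subunit genes 14 of 28 were higher, with a median of −0.00033. Without AMPK KO replicate 2 these medians were 0.09 and −0.14. The 8 members with an unadjusted p under 0.05 belonged to the large subunit, where they make up 16.7% of its genes, below the 21.3% of all genes. Medians over members carry no test here, since the members' values are not independent of one another.

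**Figure D1:**
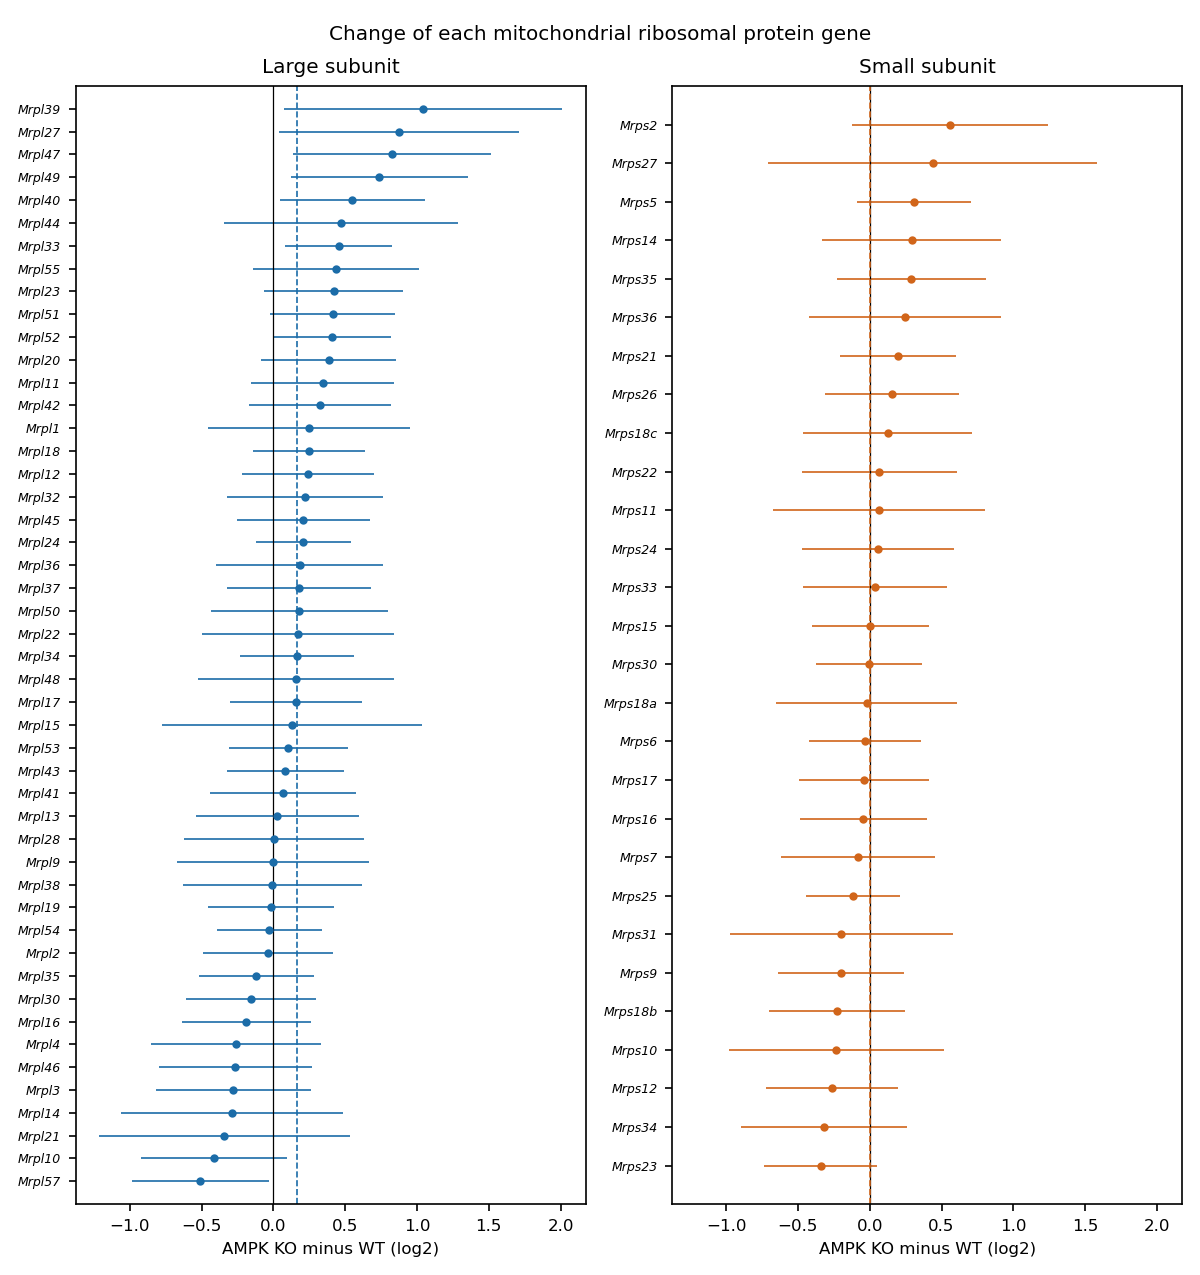
Difference AMPK KO minus WT on the log2 scale for each of the 76 tested members, large subunit at left and small subunit at right, with 95% confidence intervals from limma (n = 3 libraries a group). Dashed lines mark the medians, 0.17 for the large and −0.00033 for the small subunit, and most intervals cross 0.

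**Figure D2:**
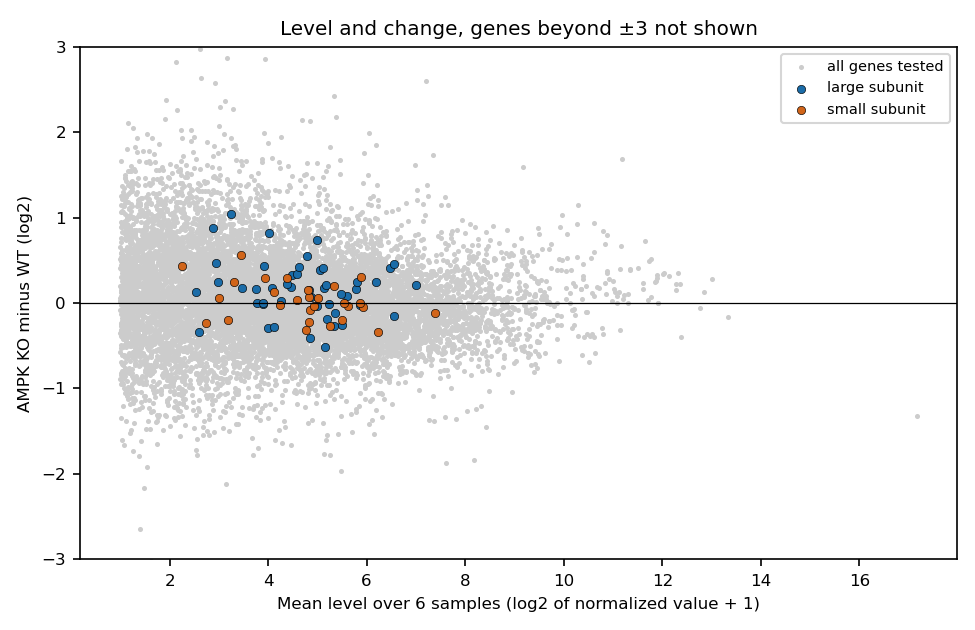
Difference AMPK KO minus WT against mean level for all 11279 genes tested (grey), with the 48 large-subunit genes in blue and the 28 small-subunit genes in orange. The members sit in the middle of the cloud, between levels of 2.26 and 7.39 and differences of −0.51 and 1.04.

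Among the large-subunit proteins with relatives in bacteria, Mrpl33 had the lowest adjusted p of all members. Mrpl33, a small protein near the exit site of transfer RNA, stood at 6.21, 6.68 and 6.12 in WT and at 6.68, 6.90 and 6.79 in AMPK KO. All AMPK KO values were above all WT values, the lowest by a margin of less than the spread within either group (difference 0.46, SE 0.17, adjusted p = 0.146). Mrpl23, which lines the mouth of the exit tunnel, stood at 4.19, 4.64 and 4.43 in WT and at 4.71, 4.96 and 4.85 in AMPK KO. Its groups did not overlap either (difference 0.42, SE 0.23, adjusted p = 0.308), and its last 500 bases match a processed pseudogene, Mrpl23-ps1, at 100% identity, so its reads could be split. Mrpl47 belongs to the bacterial L29 family despite its high number and also sits at the tunnel exit. It stood at 4.31, 3.04 and 3.44 in WT and at 4.47, 4.57 and 4.22 in AMPK KO. Only WT replicate 1 reached into the range of the AMPK KO libraries (difference 0.83, SE 0.32, adjusted p = 0.154). Mrpl27, whose bacterial relative reaches into the catalytic centre, differed by 0.88 (adjusted p = 0.212), but its last 500 bases hold a stretch that matches 41 other annotated genes at 95% identity or more.

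Mrpl24, a tunnel protein and the second highest member by level, stood at 7.05, 6.83 and 6.82 in WT and at 6.96, 7.33 and 7.04 in AMPK KO, which overlapped (difference 0.21, adjusted p = 0.475). Its last 500 bases lie within an exon of Rrnad1 on the opposite strand. Mrpl10 and Mrpl12 form the stalk that recruits translation factors, and the 2 did not lean the same way. Mrpl10 stood at 5.03, 4.89 and 5.26 in WT and at 5.04, 4.57 and 4.33 in AMPK KO (difference −0.41, SE 0.24, adjusted p = 0.338). Mrpl12 stood at 5.95, 5.21 and 5.90 in WT and at 5.95, 6.10 and 5.73 in AMPK KO (difference 0.24, SE 0.21, adjusted p = 0.555). The groups overlapped for both stalk proteins, and without WT replicate 2 the difference of Mrpl12 was 0.0027. Mrpl14, at the face that meets the small subunit, stood at 3.95, 4.01 and 4.49 in WT and at 4.08, 4.55 and 2.95 in AMPK KO, where replicate 3 alone was low (difference −0.29, SE 0.36, adjusted p = 0.696). Mrpl3 was the 1 member whose AMPK KO values all lay below the WT values, at 3.88, 4.09 and 3.99 against 4.11, 4.19 and 4.49 (difference −0.28, adjusted p = 0.564). Mrpl15 and Mrpl21, the lowest large-subunit genes, differed by 0.13 (SE 0.42, adjusted p = 0.895) and −0.34 (SE 0.41, adjusted p = 0.681).

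Many of the higher-numbered large-subunit proteins are additions of the mitochondrial ribosome that cover its surface. Mrpl40 stood at 4.38, 4.81 and 4.37 in WT and at 4.96, 5.40 and 4.83 in AMPK KO, groups that did not overlap (difference 0.55, SE 0.24, adjusted p = 0.195). The end of its transcript matches 9 annotated miRNA genes at 95.2% identity or more. Mrpl49 stood at 4.72, 5.22 and 3.93 in WT and at 5.20, 5.20 and 5.68 in AMPK KO, where only WT replicate 2 reached the AMPK KO values (difference 0.74, SE 0.29, adjusted p = 0.154). Of the last 500 bases of Mrpl49, 91 overlap Syvn1 on the opposite strand. Mrpl57 leaned the other way, at 5.61, 5.42 and 5.19 in WT and 4.98, 5.19 and 4.53 in AMPK KO, where the groups met at the lowest WT and the highest AMPK KO library (difference −0.51, SE 0.22, adjusted p = 0.204). It was the only member with an unadjusted p under 0.05 that was lower in AMPK KO. Mrpl44, which has the fold of an RNase III enzyme, differed by 0.47 (SE 0.38, adjusted p = 0.513), and Mrpl45, which tethers the ribosome to the inner membrane, by 0.21 (SE 0.22, adjusted p = 0.627). Mrpl51, which with Mrpl23, Mrpl33 and Mrpl40 makes up the 4 large-subunit genes with groups apart upwards, stood at 5.08, 4.96 and 4.70 in WT and at 5.25, 5.52 and 5.21 in AMPK KO (difference 0.41, adjusted p = 0.262). Of the last 500 bases, 87 of Mrpl51 overlap Mir3098 and 107 of Mrpl33 overlap Gm43809, both on the same strand. Of the 30 large-subunit genes with neither an overlap nor a copy, 0 had groups apart upwards, where 11.6% of all genes did. At an unadjusted p under 0.05 in limma that set held 4 genes (13.3%, against 21.3% of all genes), 3 higher and 1 lower. Its median difference was 0.145, and the part of the transcript ends was not tested. Mrpl39 had the largest difference of any tested member, 1.04 (SE 0.45, adjusted p = 0.203), on values of 2.66, 3.74 and 1.80 in WT and 3.86, 3.16 and 4.32 in AMPK KO that overlapped.

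Split by number, the 28 large-subunit genes numbered up to 36, the range of bacterial names, had a median difference of 0.145 with 17 higher. The 20 with higher numbers had a median of 0.195 with 16 higher. In the small subunit the 16 genes numbered up to 21 had a median of −0.03 with 7 higher, and the 12 above had 0.05 with 7 higher. The split follows the symbols and not homology in every case, since Mrpl47, Mrps24 and Mrps28 belong to bacterial families L29, S3 and S1. The differences between these classes were not tested.

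**Figure D3:**
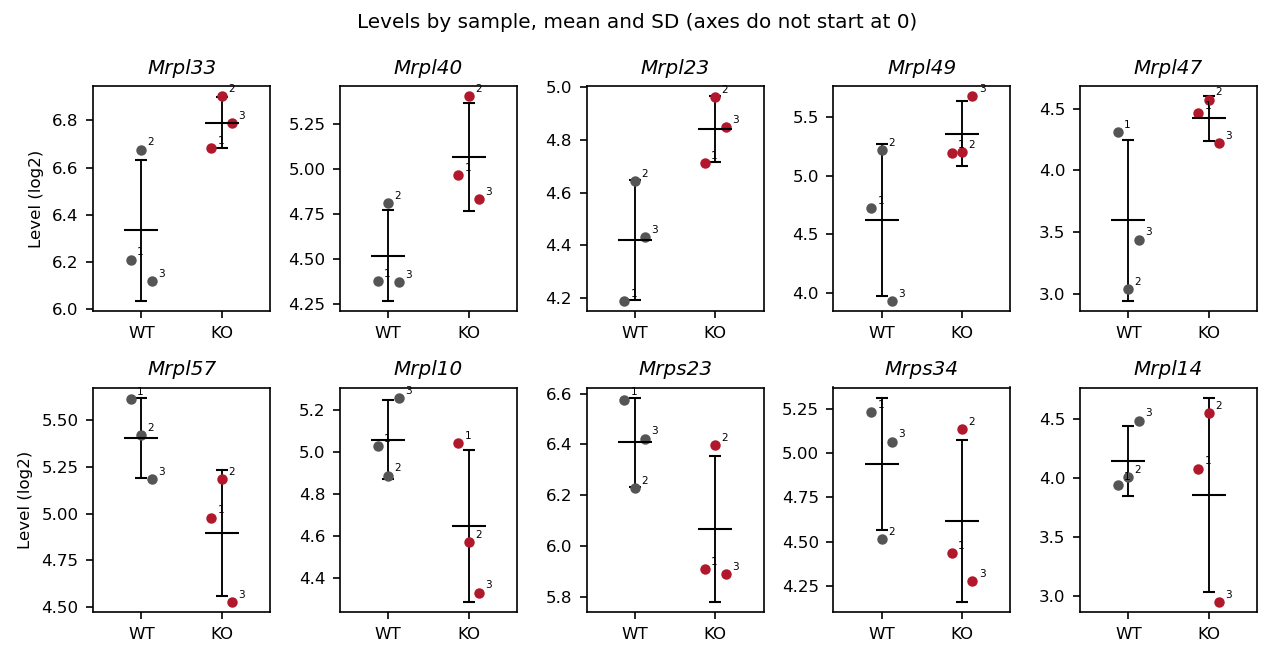
Level in each library, on the deposited log2 scale, for the 5 largest upward and 5 largest downward differences among members with a mean level of at least 4, with the mean and SD of 3 libraries a group and the replicate number beside each point. The 2 groups are apart for Mrpl33, Mrpl40 and Mrpl23, and overlap or meet for the other 7.

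The small subunit showed no common direction. Mrps23, which is specific to mitochondria, was among the more abundant members at 6.58, 6.23 and 6.42 in WT and 5.91, 6.40 and 5.89 in AMPK KO. AMPK KO replicates 1 and 3 were below all WT libraries and replicate 2 was not (difference −0.34, SE 0.18, adjusted p = 0.303). Mrps34, which is needed for a stable small subunit, showed the same arrangement of AMPK KO replicates, at 5.23, 4.52 and 5.06 in WT and 4.44, 5.14 and 4.28 in AMPK KO (difference −0.32, SE 0.27, adjusted p = 0.536). Its last 500 bases match a transcript of Mapk8ip3. Mrps12, part of the decoding centre, stood at 5.32, 5.28 and 5.56 in WT and at 4.83, 5.49 and 5.04 in AMPK KO, again with replicate 2 among the WT values (difference −0.27, SE 0.21, adjusted p = 0.513). Mrps21 was the 1 tested small-subunit gene with groups apart, at 5.11, 5.32 and 5.26 in WT against 5.33, 5.61 and 5.34 in AMPK KO, a gap smaller than the spread of either group (difference 0.20, adjusted p = 0.596), and the end of its transcript matches a copy elsewhere. Mrps25 differed by −0.12 (SE 0.15, adjusted p = 0.705). Mrps27, an RNA-binding protein and the lowest tested member, spanned 0.77 to 3.10 in WT and 1.92 to 3.10 in AMPK KO on 7 to 81 reads (difference 0.44, SE 0.54, adjusted p = 0.686).

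The symbols of 3 members name proteins that structures place elsewhere. Mrps30 and Mrps18a are parts of the large subunit, and Mrps36 is a subunit of the 2-oxoglutarate dehydrogenase complex. Mrps30 stood at 6.04, 5.81 and 5.77 in WT and 5.88, 5.72 and 5.99 in AMPK KO, a difference of −0.0040 (SE 0.17, adjusted p = 0.993). Mrps18a differed by −0.02 (SE 0.30, adjusted p = 0.978) and Mrps36 by 0.25 (SE 0.31, adjusted p = 0.700). With these 3 moved, the medians were 0.16 over 50 large-subunit genes and 0.0033 over 25 small-subunit genes.

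The member left out of the test was Mrps28, a small-subunit protein. It had 0, 2 and 0 reads in WT and 14, 5 and 38 in AMPK KO, so the AMPK KO libraries were all higher. Summed over libraries and allowing for their depths, AMPK KO held 23.2 times the WT reads, with a 95% exact interval of 6.13 to 196 that covers counting error only. Fitted without a minimum level, the difference was 1.16 (SE 0.37, adjusted p = 0.155), a value that depends on the added 1. The AMPK KO libraries themselves ranged from 5 to 38 reads.

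The subunits were next compared within each library, where scaling between libraries cancels. Reads of large-subunit genes divided by those of small-subunit genes gave 1.57, 1.61 and 1.47 in WT and 1.79, 1.71 and 1.74 in AMPK KO. All AMPK KO libraries were above all WT libraries, with 1.55 ± 0.07 and 1.75 ± 0.04 (SD, n = 3). Large-subunit genes took 0.187% ± 0.0022 of WT reads outside Rn45s and 0.197% ± 0.0139 of AMPK KO reads. Small-subunit genes took 0.121% ± 0.0056 and 0.113% ± 0.00997. Neither share was apart between the groups, as AMPK KO replicate 3 held 0.185% in the large subunit and AMPK KO replicate 2 held 0.124% in the small subunit. No p-value is given for this ratio, as the members were chosen with results known, and 3 libraries against 3 allow no exact p below 0.10.

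Other choices of members left the ratio higher in AMPK KO. By structural placement it was 1.78 ± 0.08 in WT and 2.00 ± 0.07 in AMPK KO. Without the 3 members of highest level, Mrps25, Mrpl24 and Mrpl33, it was 1.64 ± 0.06 and 1.79 ± 0.04. Restricted to the 50 members whose last 500 bases neither overlap an exon of another gene nor match a copy elsewhere, it was 1.27 ± 0.03 and 1.35 ± 0.03, so the difference fell from 0.20 to 0.08 while the groups stayed apart. Weighting members equally, the large-subunit median deviation from each gene's mean exceeded that of the small subunit by −0.09, −0.01 and −0.15 in WT and by 0.14, 0.01 and 0.17 in AMPK KO, again apart but by a narrow margin. For the cytosolic ribosome the like ratio was 1.32 ± 0.02 in WT and 1.56 ± 0.03 in AMPK KO, and without Rplp1 alone it was 1.29 ± 0.02 and 1.30 ± 0.02, with groups that overlapped.

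**Figure D4:**
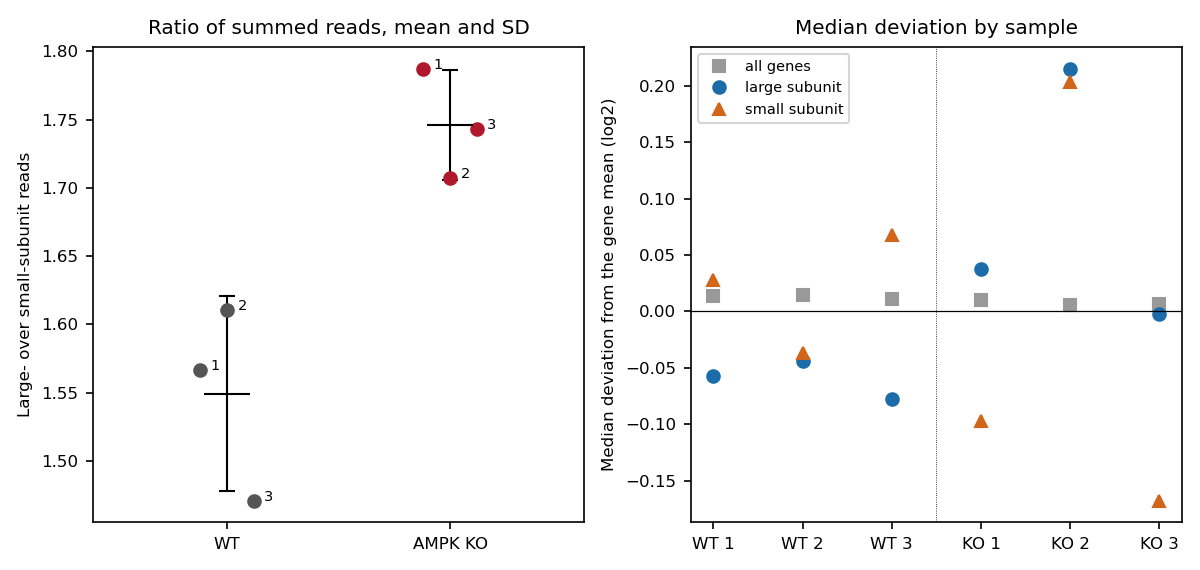
At left, reads of the 48 large-subunit genes divided by reads of the 29 small-subunit genes in each library, with mean and SD of 3 libraries a group, on an axis that does not start at 0. At right, the median deviation from each gene's mean over 6 libraries, on the log2 scale, for tested members of each subunit and for all genes. AMPK KO replicate 2 is high for both subunits, and the large-subunit median is above the small-subunit median in every AMPK KO library and below it in every WT library. The gap is narrow in WT replicate 2 (−0.007) and AMPK KO replicate 2 (0.012). As each gene's mean is over all 6 libraries, values above it in 1 group go with values below it in the other.

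AMPK KO replicate 2 stood apart from the other AMPK KO libraries in these genes. The median deviation of its large-subunit genes was 0.22 and of its small-subunit genes 0.20, against 0.04 and −0.0025 for the large subunit and −0.10 and −0.17 for the small subunit in replicates 1 and 3. It was the highest of the 3 AMPK KO libraries for 49 of 76 members (64.5%), against 39.2% of all genes. Cytosolic ribosomal proteins showed the same, with medians of 0.43 and 0.44 for their subunits in that library, as did respiratory chain and ATP synthase subunits with 0.34. Markers of other cells also differed there from AMPK KO replicates 1 and 3. C1qa (8.0 against 6.9 and 6.4), Csf1r (9.0 against 8.3 and 7.9) and Hba-a1 (11.7 against 10.9 and 10.4) were higher. Lyz2 (3.3 against 4.3 and 4.4) and Hba-a2 (3.5 against 4.7 and 5.0) were lower. The part of cell content in this library was not tested. Without AMPK KO replicate 2, the median difference of the large subunit was 0.09 and of the small subunit −0.14.

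That library belongs to a wider division. The first axis of the deviations from group means, which held 42.5% of their variance over all genes, set WT replicate 2 with AMPK KO replicates 1 and 3, and WT replicates 1 and 3 with AMPK KO replicate 2. No label names a batch. Because the deviations were taken from each group's own mean, an axis of them carries no difference between the genotypes by construction. Within the first set of libraries the median difference was 0.14 for the large subunit and −0.04 for the small, and within the second it was 0.35 and 0.25, where all genes gave 0.01 and 0.02. The second set compares 2 WT libraries with 1 AMPK KO library. Across all genes, the contrast of the division fell with the GC content of the last 500 bases of the transcript (Spearman correlation −0.31), and across the members it was −0.33 (76 genes that share libraries). GC content and the genotype difference had correlations of 0.0060 over all genes, −0.09 in the large subunit and −0.32 in the small. The part of GC content in the result was not tested beyond a correction for it, under which the medians were 0.11 for the large subunit, −0.03 for the small and −0.03 for all genes.

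**Figure D5:**
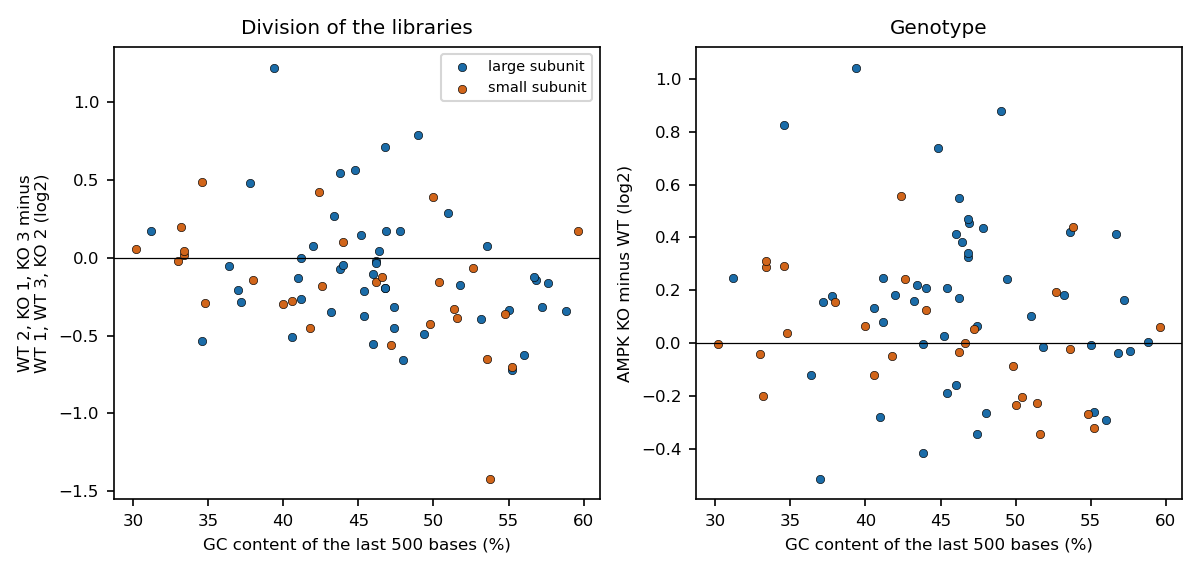
GC content of the last 500 transcript bases in percent against, at left, the difference between the 2 sets of libraries that deviate together and, at right, the difference AMPK KO minus WT, both on the log2 scale, for the 48 large-subunit and 28 small-subunit genes tested. The left panel slopes downwards (Spearman correlation −0.33 over the members), and the right panel does so less (−0.16).

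Members passed the test only when particular libraries were left out or the division was a term in the fit. Without replicate 2 of both groups, 10 members (13.2%) passed, against 21.1% of all genes. Mrpl27, Mrpl33, Mrpl39 and Mrpl49 were higher in AMPK KO and Mrpl4, Mrpl30, Mrpl46, Mrpl57, Mrps23 and Mrps34 lower. The remaining WT libraries all come from one side of the division and the remaining AMPK KO libraries from the other, so genotype and division cannot be told apart in that fit. Without WT replicate 2 alone, 3 members passed (3.95%), Mrpl33, Mrpl39 and Mrpl49, against 6.46% of all genes. With the division as a term in the fit, Mrpl47 alone passed (difference 1.00, SE 0.29, limma adjusted p = 0.020), or 1.32% of the members against 12.7% of all genes. The division was read from the values of these same libraries, so the adjusted p of that fit cannot be taken at face value.

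Gene groups of related function are set beside the members, which held 0 calls where 5.65% of all genes were called. Of cytosolic large-subunit proteins 5 of 47 tested rose and 0 fell, with a median difference of 0.25, and of cytosolic small-subunit proteins 4 of 31 rose and 0 fell, with a median of 0.26. Of nuclear-encoded subunits of the respiratory chain and ATP synthase 2 of 75 rose and 0 fell, with a median of 0.17, close to that of the mitochondrial large subunit. At an unadjusted p under 0.05 the shares were 34.0%, 38.7% and 22.7%, against 10.5% of the members and 21.3% of all genes. The difference between these groups and the members was not tested.

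The mitochondrial ribosome also holds proteins with names outside the Mrpl and Mrps series, and of 5 tested 0 passed. Chchd1, a small-subunit protein, stood at 6.15, 6.19 and 6.03 in WT and at 6.46, 6.86 and 6.45 in AMPK KO, groups that did not overlap (difference 0.47, SE 0.17, adjusted p = 0.122). Gadd45gip1, a large-subunit protein, differed by 0.35 (adjusted p = 0.286), and the small-subunit proteins Aurkaip1, Ptcd3 and Dap3 by 0.26, 0.05 and −0.24. Ict1, the older symbol of the release factor relative Mrpl58, differed by −0.17 (adjusted p = 0.689) and was looked up after the other values were seen.

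The proteins that build and feed the ribosome gave 1 call over 4 lists, where 5.65% of all genes were called. Of 23 tested assembly and ribosomal RNA processing genes 0 passed, with a median difference of 0.03. Mtg1, a GTPase of late large-subunit assembly, came nearest at 1.93, 3.07 and 2.61 in WT and 3.56, 3.54 and 4.34 in AMPK KO, groups that did not overlap (difference 1.28, SE 0.38, adjusted p = 0.060). Of 11 translation factors 0 passed, with a median of −0.12. Among these Tufm, the elongation factor that delivers aminoacyl-tRNA, stood at 2.87, 2.54 and 2.21 in WT and 3.81, 3.74 and 2.996 in AMPK KO, also apart (difference 0.98, SE 0.36, adjusted p = 0.126). Of 20 aminoacyl-tRNA synthetases and amidotransferase subunits 1 fell. Lars2, the mitochondrial leucyl-tRNA synthetase, stood at 5.71, 5.43 and 5.41 in WT and at 4.28, 3.44 and 4.62 in AMPK KO, all below WT (difference −1.40, SE 0.28, adjusted p = 0.00971). Rn45s moved in the same direction in the same libraries, by −1.33 (SE 0.40, adjusted p = 0.064), and its part in the Lars2 value was not tested. Tars2, the threonyl enzyme, differed by −0.80 (SE 0.23, adjusted p = 0.057), with all AMPK KO libraries below WT. Of 11 tested genes for transcription and stability of mitochondrial RNA 0 passed, with 2 higher in AMPK KO and a median of −0.15. Tfam, which packages mitochondrial DNA and starts its transcription, differed by −0.11 (adjusted p = 0.839).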

How the data were processed

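CD4 T cell RNA (500 ng of total RNA per library) was sequenced in 6 libraries, 3 WT and 3 AMPK KO. Bowtie2, bedtools and mm10 are named in the submitters' processing notes, without versions. The authors deposited log2 values, log2(CPM after TMM scaling + 1), per gene and library. Reads were recovered from these values, and 100% of the values up to 100 reads lay within 0.1 of a whole read. The study describes the 3 samples a group as biologically independent, and the labels do not say whether each came from its own mouse. Genes with a mean log2 level of at least 1 were fitted with limma 3.58.1 (lmFit and eBayes with a trend, R 4.3.3), 2-sided, with Benjamini-Hochberg adjustment over all genes tested and a threshold of 0.05. Members and lists were chosen with earlier results of these data known. Members were named as the 5 largest differences in each direction with a mean of at least 4, the 3 highest and 3 lowest levels, the 3 proteins placed elsewhere, Mrpl12, Mrpl44, Mrpl45, Mrps12 and Mrps27 for their roles, and Mrps28 as not tested. Mrpl3, Mrpl27, Mrpl39, Mrpl51, Mrps21, Mtg1, Tufm, Tars2 and Tfam were named after their values were seen. Transcript ends, GC content and copies (BLAST 2.17.0, at least 95% identity over at least 100 bases) came from GENCODE transcripts of GRCm38. Alternatives were other scalings, filters, limma voom on recovered reads, a replicate block, a division term, GC correction and left-out libraries.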

Additional observations from a re-analysis of the deposited data

How the results depend on the processing

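The count of 0 members past the threshold was also found with quantile normalization, scaling to reads outside Rn45s, no filter and a mean of at least 3. It was found too with robust eBayes, limma voom on recovered reads and GC correction. Over these settings 1.93% to 7.79% of all genes passed. At an unadjusted p under 0.05 they held 5 to 8 members each, where the main fit had 8 members and 21.3% of all genes. Of the members counted in these settings, 1 was of the small subunit with scaling outside Rn45s, with no filter and with GC correction, and 0 otherwise. Scaling outside Rn45s moved the median of all genes by −0.064. With a term for the division, which was itself read from these values, 1 member passed, of the large subunit, where 12.7% of all genes did. Without replicate 2 of both groups 10 passed, where 21.1% of all genes did, 8 of the large and 2 of the small subunit, and the cause was not tested beyond the overlap of division and genotype in that fit. Leaving out 1 library at a time gave 0 to 3 members, 0 to 3 of the large and 0 of the small subunit. The high end came without WT replicate 2, where 6.46% of all genes passed, and over these fits 127 to 1243 genes passed. At an unadjusted p under 0.05 these fits held 2 to 11 members. Of those members, 1 was of the small subunit without WT replicate 3, 3 without AMPK KO replicate 2 and 0 otherwise.

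The median of the large subunit stayed between 0.09 and 0.20 when 1 library was left out, and that of the small subunit between −0.14 and 0.10. Over 17 settings the large-subunit median exceeded the small-subunit median by 0.08 to 0.22. The difference in the ratio of large- to small-subunit reads ranged from 0.157 to 0.227 without 1 library and was 0.0752 without overlapping or copied 3′ ends. The alternatives for this ratio and the GC correction were added after the data were seen.

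Of 22 named members tested, 15 kept their sign in every alternative. Without replicate 2 of both groups the sign turned for Mrps27 (−0.51), Mrpl15 (−0.21), Mrps30 (0.0345) and Mrpl12 (−0.085). Mrps30 also turned under quantile normalization (0.0271) and GC correction (0.0138), and Mrps18a with the division term (0.20). Without 1 library the ranges crossed 0 for Mrpl14 (−0.63 to 0.17), Mrps27 (−0.20 to 0.97), Mrpl15 (−0.13 to 0.51), Mrpl21 (−0.64 to 0.0517), Mrps30 (−0.066 to 0.0785) and Mrps18a (−0.31 to 0.20). Without 1 library Mrpl12 ranged from 0.0027 without WT replicate 2 to 0.37, and Mrpl49 from 0.39 without WT replicate 3 to 1.03. Other differences that moved by over 1.5 times without changing sign were those of Mrpl10 (−0.61 to −0.25), Mrpl24 (0.098 to 0.28), Mrpl44 (0.23 to 0.76), Mrpl45 (0.091 to 0.38), Mrpl47 (0.55 to 1.18), Mrpl57 (−0.65 to −0.33), Mrps12 (−0.45 to −0.12), Mrps25 (−0.24 to −0.053), Mrps34 (−0.58 to −0.15) and Mrps36 (0.11 to 0.36). Of the members in the ranges that crossed 0, none passed the threshold in any of these settings.

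The replicate numbers did not pair the samples, since the deviations of same-numbered libraries correlated at −0.08, −0.32 and −0.16. With the replicate block, 102 genes and 0 members passed, with 3 members at an unadjusted p under 0.05. With 3 libraries a group and a median interval of ±0.50, differences of the size of the subunit medians could not be detected in a single gene.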
